A study of Penaeus vannamei with 11 samples.

Results

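Lysosome genes were described across hemocytes of the Pacific white shrimp *Penaeus vannamei*, in males and in females, with and without the bacterium *Vibrio parahaemolyticus*. Hemocytes are the circulating blood cells of the shrimp. Genes were taken by name alone: the leading description entry in the deposited table had to contain lysosom, cathepsin, V-type proton ATPase, legumain, saposin, prosaposin, beta-hexosaminidase, Niemann-Pick, alpha-galactosidase, beta-galactosidase or acid phosphatase. This gave 64 of 18803 genes. Niemann-Pick and alpha-galactosidase matched 0 genes. Hemocyte RNA gave 11 libraries: 3 from Vibrio males, 2 from control males, whose labels carry the numbers 2 and 3, then 3 from Vibrio females and 3 from control females. The sources used here give no age or strain, and no dose, route or time of the stimulation. A treatment field reading immune stands on every library, controls included, and a control male numbered 1 was not analysed here. The labels do not say whether libraries of a group came from separate animals, pools or repeats, so p-values measure spread between these samples only.

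The lysosome is the acidic compartment in which a cell breaks down what it has engulfed, and phagocytic blood cells of crustaceans and insects deliver bacteria to it. The V-type proton ATPase pumps protons into that compartment: its V1 sector, on the cytosolic side, hydrolyses ATP, and its V0 sector carries the protons through the membrane. Low pH activates cathepsins and the other acid hydrolases, saposins present lipids to them, and BLOC-1 helps to sort cargo to lysosome-related organelles.

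By role, the 64 genes were 9 of the V1 sector, 9 of the V0 sector and its accessory subunits, 12 cathepsins and legumains, 9 other proteases, protective proteins and thiol reductases, 8 glycosidases, 3 saposin or lipid thioesterase genes, 3 acid phosphatases, 4 membrane proteins and 7 genes of BLOC-1 and lysosomal trafficking. The rule used no annotation other than the name, and 32 of the 64 genes also carried the KEGG pathway Lysosome, which stood on 155 genes in all. One name states the opposite of the label, non-lysosomal glucosylceramidase-like (LOC113827210). Of the 64 genes, 51 were found in the RefSeq gene table (ASM4276789v1), where 10 have another symbol, among them Vha55 for the subunit B gene LOC113821152 and VhaAC39-1 for the subunit d gene LOC113814572. Names shared with at least 1 other gene were carried by 33 of the 64 genes, so reads may be split between copies there.

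Depth was 39733829 to 53837438 counts per library, with 13210 to 15138 genes detected. Of the counts between 1 and 20, 61.28 to 68.21% were even, so they may not be single independent fragments. Hemocyte markers were high in every library, with penaeidin-3a-like (LOC113808997), a hemocyte antimicrobial peptide, at 7223 to 18886 FPKM. Markers of the hepatopancreas, the digestive gland, were present, and their spread differed by marker. Trypsin-1-like (LOC113815561) ran between 0.0959 and 79.8 FPKM and hemocyanin (LOC113830072) between 2.47 and 309 FPKM. Alpha-amylase 1-like (LOC113817723) ran between 6.21 and 44.8 FPKM, and carboxypeptidase B-like (LOC113825742) between 36.7 and 74.1 FPKM. The last did not follow trypsin-1-like: it had 72.4 FPKM in Vibrio female 2, where trypsin-1-like was lowest. FPKM is the deposited level scaled to gene length and library size. CPM is the count scaled to a library total of 1000000 after TMM scaling, and it is not corrected for length.

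Part of the set was well expressed in these hemocytes, and a few genes held most of its summed level. A mean of at least 20 FPKM over the 11 libraries was reached by 31 of the 64 genes, against 2693 of the 14295 genes tested. The 31 include all 18 V-type ATPase genes. At least 100 FPKM was reached by 9 of the 64. The 10 highest held 63.0 to 67.7% of the summed FPKM of the 64 genes. At the other end, 13 genes averaged under 1 FPKM, 3 of them listed at 0 in every library, and 51 genes had a count in all 11 libraries.

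The highest mean belonged to a gamma-interferon-inducible lysosomal thiol reductase-like gene (GILT-like, LOC113803440), whose mammalian counterpart reduces disulfide bonds of engulfed proteins. It had 460 ± 56.8 FPKM (SD, n = 11). Cathepsin L (LOC113825585) followed with 378 ± 147 FPKM and cathepsin B (LOC113808173) with 327 ± 116 FPKM, both cysteine proteases. Next came a lysosomal aspartic protease-like gene (LOC113812323, 290 ± 67.3 FPKM), the 16 kDa proteolipid subunit-like gene of the proton channel (LOC113814946, 268 ± 26.2 FPKM) and prosaposin-like (LOC113813445, 258 ± 28.2 FPKM). Neighbours in this order differ by less than the larger SD of the pair, so the order is not firm. Below them stood V-type ATPase subunit G-like (LOC113813311, 193 ± 61.1 FPKM), catalytic subunit A-like (LOC113801067, 118 ± 16.4 FPKM), the 21 kDa proteolipid subunit-like gene (LOC113826027, 116 ± 22.5 FPKM) and a second prosaposin-like gene (LOC113813144, 96.9 ± 23.5 FPKM). The V-type ATPase genes held 37.9 to 43.8% of the summed FPKM.

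**Figure D1:**
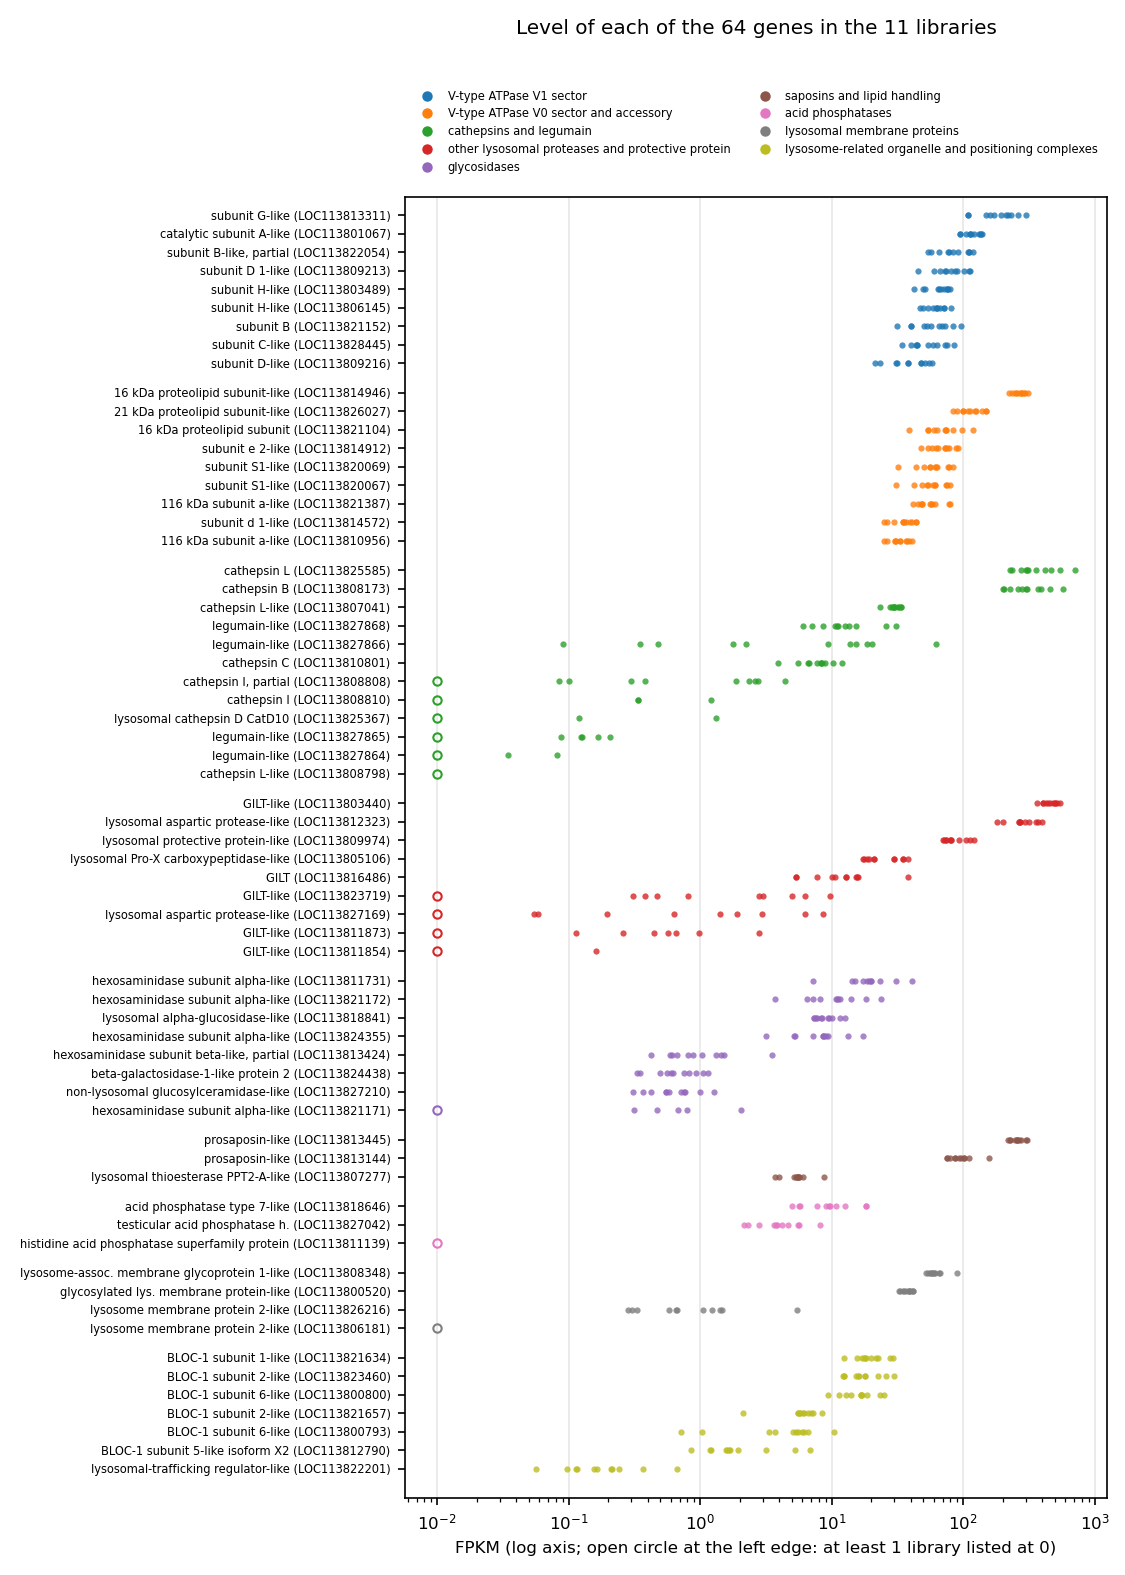
FPKM (log axis) of each of the 64 genes, grouped by role, with 1 point per library and an open circle at the left edge where at least 1 library is listed at 0. GILT stands for gamma-interferon-inducible lysosomal thiol reductase and BLOC-1 for biogenesis of lysosome-related organelles complex 1. All 18 V-type ATPase genes stayed above 20 FPKM in every library, while several legumain, cathepsin and GILT copies ranged from 0 or near 0 upwards.

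Together the 64 genes took 0.816, 0.870 and 0.681% of the counts in Vibrio males, against 0.885 and 0.926% in control males. They took 0.926, 0.947 and 0.777% in Vibrio females, against 0.626, 0.828 and 0.743% in control females. Control males thus stood above Vibrio males, while in females the Vibrio libraries stood higher, with overlap between 0.777% and 0.828%. In bulk RNA, fewer cells of a type and less RNA per cell cannot be told apart.

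No lysosome gene passed the test in any comparison, and nor did any other gene of the table by that test. Of the 64 genes, 57 passed the filter on low counts and were tested among 14295 genes with edgeR's quasi-likelihood test. At an adjusted p under 0.05 it called 0 of the 57 in each of 5 comparisons, where the share of all genes called was 0.0%. The comparisons were Vibrio against control in males, the same in females, the male minus the female effect, and males against females with Vibrio and in controls. They share libraries, so the values below are given side by side and not as independent results. What the 57 genes showed was a lean that most of them shared, downward in Vibrio males and upward in Vibrio females, in 17 of the 18 V-type ATPase subunits among others.

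In males, 42 of the 57 genes had a lower estimate with Vibrio, against 52.1% of all genes tested. Their median log2 fold change was -0.29, and that of all genes -0.03. An unadjusted edgeR p under 0.05 was reached by 3 of them, all lower, against 2.41% of all genes. With only 2 control males, non-overlap is common: 14 genes were lower with Vibrio without overlap (11.5% of all genes) and 3 higher (13.3%). The median was -0.19 without control male 3. DESeq2, run as an alternative with no filter on low counts, took in 61 genes of the set. Its shares here and below are of all genes with a DESeq2 adjusted p. It called 0 of the 61 here (0.0833%).

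In females, 49 of the 57 genes had a higher estimate with Vibrio than in controls, against 55.0% of all genes tested, and 8 a lower one (44.9%). The median log2 fold change of the 57 was 0.33, and that of all genes 0.05. An unadjusted edgeR p under 0.05 was reached by 7 of them, all higher with Vibrio, against 4.05% of all genes. They were 5 V-type ATPase genes, prosaposin-like LOC113813144 and lysosome membrane protein 2-like LOC113826216. The libraries of the groups did not overlap for 7 genes that were higher with Vibrio (2.48% of all genes) and 1 that was lower (3.9%). The median was 0.19 without control female 1 and 0.52 without Vibrio female 3, and the count of higher genes 38 without Vibrio female 2. DESeq2 called 1 of its 61 genes (0.157% of all genes), the subunit B gene LOC113821152.

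For the male minus the female effect, 47 of the 57 genes were below 0, against 54.1% of all genes, and 10 above 0 (45.9%), with medians of -0.67 over the 57 and -0.08 over all. An unadjusted edgeR p under 0.05 was reached by 11 of the 57, 10 of them below 0, against 5.6% of all genes, and the smallest adjusted p was 0.74. Of the 11, 8 were V-type ATPase genes, and the others were cathepsin L (LOC113825585), cathepsin C (LOC113810801, above 0) and a GILT-like gene (LOC113811873). DESeq2 called 2 of its 61 genes (0.15% of all genes), both of them subunit B genes.

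Set side by side by sex, 51 of the 57 genes were lower in Vibrio males than in Vibrio females (60.1% of all genes) and 6 were higher (39.8%), with a median log2 difference of -0.25, which was -0.16 without Vibrio female 1 and -0.45 without Vibrio female 3. Among controls, 38 of the 57 were higher in males than in females (48.5% of all genes), with a median of 0.25. That control median was 0.08 without control male 3 and 0.44 without control female 3. Unadjusted edgeR p under 0.05 was found for 4 genes with Vibrio (3.4% of all genes) and 7 in controls (4.88%). DESeq2 called 1 gene with Vibrio (0.115% of all genes), LOC113811873, and 0 in controls (0.099%). Non-overlap was rare with Vibrio, where 1 gene was higher in males (4.82% of all genes) and 2 were lower (2.95%). In controls 19 genes were higher in males without overlap (9.54% of all genes), and 1 was lower (11.8%).

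Part of this lean was shared by other well-expressed genes. Of the 31 lysosome genes with a mean of at least 20 FPKM, 29 were higher with Vibrio in females, and of all 2693 genes at that level 61.3%. In males 28 of the 31 were lower with Vibrio, and 62.2% of the 2693. The male minus the female effect was below 0 for 28 of the 31, and for 63.0% of the 2693. For that difference an unadjusted edgeR p under 0.05 was reached by 9 of the 31, and by 9.88% of the 2693. Hemocyte marker genes took 2.76 to 3.31% of the counts in Vibrio males, against 2.42 to 2.49% in control males. Their range was 1.87 to 2.13% in Vibrio females, against 2.11 to 3.98% in control females. The summed share of this list, 31 genes of which 24 had a count in every library, leaned the opposite way to the lysosome genes in both sexes. Its genes did not all do so in males. Penaeidin-3a-like had 12324 to 18886 FPKM in Vibrio males, against 9497 to 11796 FPKM in control males. Crustacean hematopoietic factor-like (LOC113802754) had 3785, 4118 and 5171 FPKM, against 6650 and 4315 FPKM. The part of this list in the result was not tested.

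**Figure D2:**
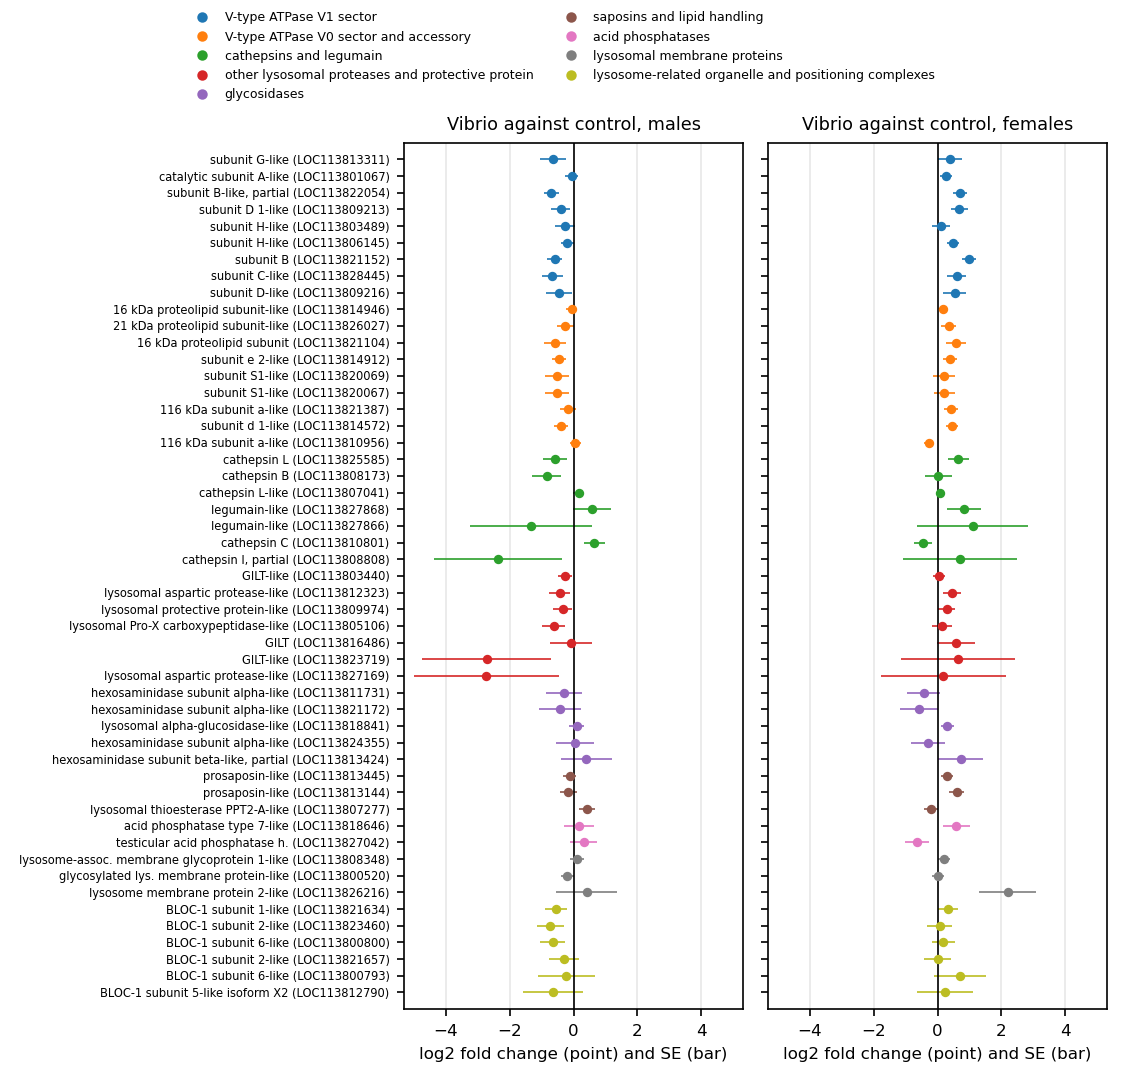
Log2 fold change (point) and SE (bar) of Vibrio against control in males (left) and females (right) for the 51 genes with a mean of at least 1 FPKM, coloured by role. Points of the V-type ATPase genes lie left of 0 in males and right of 0 in females, except for subunit a-like LOC113810956, while the widest bars belong to genes near 0 FPKM in some libraries.

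The V-type proton ATPase gave a nearly uniform pattern. All 18 subunit genes passed the filter. With Vibrio, 17 of the 18 were lower in males (median log2 fold change -0.43) and 17 higher in females (0.41), and for 17 the male minus the female effect was below 0 (median -0.79). In controls 17 were higher in males than in females (0.55), and 14 of them without overlap. Of all genes tested 9.54% were higher without overlap there, and of all genes with a mean of at least 20 FPKM, as all 18 have, 17.1%. With Vibrio 17 were lower in males than in females (-0.22), a median that was -0.08 without Vibrio female 1 and -0.48 without Vibrio female 3. Left out in turn, single libraries moved these counts to no less than 13, and the count for the difference between the effects was 17 each time. The exception in every comparison was the same gene, a 116 kDa subunit a-like gene (LOC113810956), part of the membrane sector.

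Summed, the 18 genes took 0.284, 0.318 and 0.253% of the counts in Vibrio males, against 0.298 and 0.344% in control males. They took 0.365, 0.337 and 0.257% in Vibrio females, against 0.227, 0.298 and 0.259% in control females. The groups overlap in both sexes. Vibrio male 2 was above the 11-library mean for all 18 genes, and Vibrio male 3 for 0 of them. The low Vibrio female was number 3, in which 15 of the 18 genes were below both other Vibrio females, against 32.5% of all genes tested. Control female 1 was the lowest of all 11 libraries for 10 of the 18 genes, control male 2 the highest for 7 and Vibrio female 2 the highest for 6. The median for females was 0.27 without Vibrio female 1 and 0.55 without Vibrio female 3, and that for males -0.25 without control male 2.

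**Figure D3:**
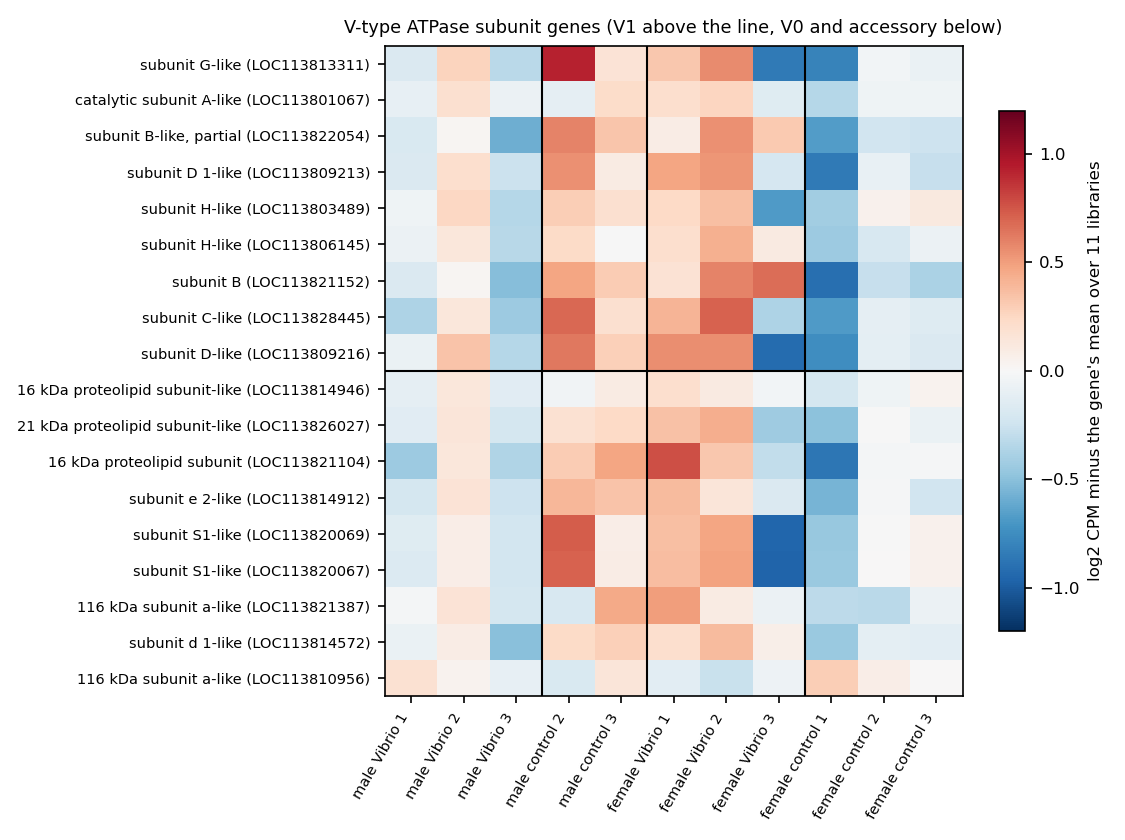
Log2 CPM of each V-type ATPase gene minus its mean over the 11 libraries (colour), for male Vibrio, male control, female Vibrio and female control libraries from left to right, with V1 genes above the line and V0 and accessory genes below. Red is above and blue below the mean: Vibrio male 2, the control males and Vibrio females 1 and 2 are mostly red, Vibrio males 1 and 3 and the control females mostly blue, and Vibrio female 3 is red for 4 of the 18 genes, both subunit B genes among them.

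Subunit B, which with subunit A forms the ATP-hydrolysing ring of V1, had the largest male minus female effects of the 18 genes. The gene LOC113821152 had 61.8, 71.2 and 49.0 CPM in Vibrio males, against 97.1 and 86.5 CPM in control males. It had 78.8, 106 and 111 CPM in Vibrio females, against 37.4, 57.6 and 53.7 CPM in control females. Every Vibrio male lay below both control males, and every Vibrio female above all control females. The log2 fold change was -0.60 (SE 0.24) in males and 0.99 (SE 0.22) in females, and the male minus the female effect was -1.59 (SE 0.33). By edgeR this difference had an unadjusted p of 0.000677 and an adjusted p of 0.74. The unadjusted p was under 0.05 in each of the 11 fits that left out 1 library. DESeq2 called it (adjusted p = 0.00912) and also called the female effect (adjusted p = 0.0403).

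A like-named gene, subunit B-like, partial (LOC113822054), followed the same pattern. It had 68.8, 79.2 and 51.9 CPM in Vibrio males, against 118 and 98.1 CPM in control males. It had 82.8, 114 and 97.1 CPM in Vibrio females, against 49.1, 66.6 and 65.7 CPM in control females. Again the groups did not overlap in either sex. The log2 fold change was -0.70 (SE 0.23) in males and 0.70 (SE 0.21) in females. The male minus the female effect was -1.39 (SE 0.32), with an edgeR adjusted p of 0.74 and a DESeq2 adjusted p of 0.0299. The ratio of this gene to LOC113821152 ran between 1.15 and 1.74 over libraries, and it is not known here how reads common to both were counted. In CPM, both B genes were also lower in Vibrio males than in Vibrio females and higher in control males than in control females without overlap (log2 differences -0.70 and 0.89 for LOC113821152, -0.56 and 0.84 for LOC113822054).

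Subunit d 1-like (LOC113814572), which links the central stalk to the membrane ring, was the third gene with this crossing pattern. It had 87.3, 98.2 and 65.2 CPM in Vibrio males, against 108 and 112 CPM in control males. It had 106, 120 and 96.7 CPM in Vibrio females, against 67.4, 84.8 and 84.6 CPM in control females. The groups did not overlap in either sex, but the steps were smaller, with log2 fold changes of -0.40 (SE 0.21) in males and 0.45 (SE 0.19) in females. The difference of -0.84 (SE 0.28) had an edgeR adjusted p of 0.74 and a DESeq2 adjusted p of 0.539. Over all genes tested, 0.35% were lower without overlap in Vibrio males and higher without overlap in Vibrio females, and 0.832% showed the opposite pattern.

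Catalytic subunit A-like (LOC113801067), the partner of B in the same ring, moved little. It had 316, 387 and 323 CPM in Vibrio males, against 314 and 395 CPM in control males. It had 389, 406 and 307 CPM in Vibrio females, against 268, 326 and 327 CPM in control females. The groups overlap in both sexes, and the log2 fold changes were -0.05 (SE 0.20) and 0.26 (SE 0.18). The ratio of A to LOC113821152 accordingly ran between 1.17 in Vibrio female 3 and 3.03 in control female 1.

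The remaining V1 genes code for the stalk and regulatory subunits. Their log2 fold changes ran between -0.66 and -0.19 in males and between 0.11 and 0.67 in females. Subunit C-like (LOC113828445), a stator subunit, had 93.5, 133 and 89.2 CPM in Vibrio males, against 195 and 138 CPM in control males, without overlap (log2 fold change -0.66, SE 0.33). It had 160, 197 and 93.5 CPM in Vibrio females, against 75.4, 113 and 109 CPM in control females, where the third Vibrio library lay among the controls (0.60, SE 0.30). Subunit H-like LOC113806145, which regulates the pump, had 36.1, 42.2 and 33.9 CPM in Vibrio females, against 23.2, 27.6 and 30.0 CPM in control females, without overlap (0.47, SE 0.19). Its like-named gene LOC113803489 gave 0.11 (SE 0.28), and the ratio of LOC113803489 to LOC113806145 ran between 0.60 and 1.23. Subunit D 1-like (LOC113809213), of the rotating shaft, gave -0.41 (SE 0.30) in males and 0.67 (SE 0.27) in females. Its neighbour D-like (LOC113809216), 36261 bases away on the same scaffold of the deposited table, gave -0.47 (SE 0.41) in males and 0.53 (SE 0.37) in females. Subunit G-like (LOC113813311) had 177, 241 and 160 CPM in Vibrio males, against 380 and 225 CPM in control males. Here the middle Vibrio male lay above the lower control, so the groups overlap (-0.65, SE 0.41), and in females the log2 fold change was 0.40 (SE 0.37).

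In the membrane sector, the 2 genes named for the 16 kDa proteolipid, the proton-carrying subunit, behaved unequally. The abundant one (LOC113814946) had 673, 797 and 661 CPM in Vibrio males, against 705 and 775 CPM in control males, and 832, 779 and 708 CPM in Vibrio females, against 624, 700 and 746 CPM in control females. It overlapped in both sexes, with log2 fold changes of -0.06 (SE 0.18) and 0.16 (SE 0.16). The other (LOC113821104) had 130, 194 and 138 CPM in Vibrio males, against 218 and 244 CPM in control males, without overlap (-0.59, SE 0.34). It had 301, 220 and 143 CPM in Vibrio females, against 96.5, 174 and 175 CPM in control females (0.58, SE 0.31), with Vibrio female 3 inside the control range. The ratio of LOC113814946 to LOC113821104 ran between 2.60 in Vibrio female 1 and 6.10 in control female 1.

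Of the other membrane genes, the 21 kDa proteolipid subunit-like gene (LOC113826027), subunit e 2-like (LOC113814912) and both accessory S1-like genes were lower in Vibrio males than in control males without overlap, with log2 fold changes between -0.53 and -0.27. For the S1-like genes the gap was narrow, with 104.7 CPM in the highest Vibrio male against 104.9 CPM in the lowest control male for LOC113820069, and without control male 2 the values were -0.17 for LOC113820069 and -0.19 for LOC113820067. The S1-like genes (LOC113820069 and LOC113820067) lie 8184 bases apart on the same scaffold. Their ratio stayed between 1.02 and 1.05 in all 11 libraries, so their values are not independent of each other. The 2 genes of the 116 kDa subunit a, which holds the proton path against the ring, differed in direction. LOC113821387 had 279, 211 and 188.2 CPM in Vibrio females, against 159, 157 and 187.6 CPM in control females (0.43, SE 0.22), the highest control lying just below the lowest Vibrio library. LOC113810956 had 169, 153 and 177 CPM in Vibrio females, against 225, 195 and 184 CPM in control females (-0.28, SE 0.16), lower without overlap. The ratio of LOC113821387 to LOC113810956 ran between 1.11 in control female 1 and 2.61 in Vibrio female 1.

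**Figure D4:**
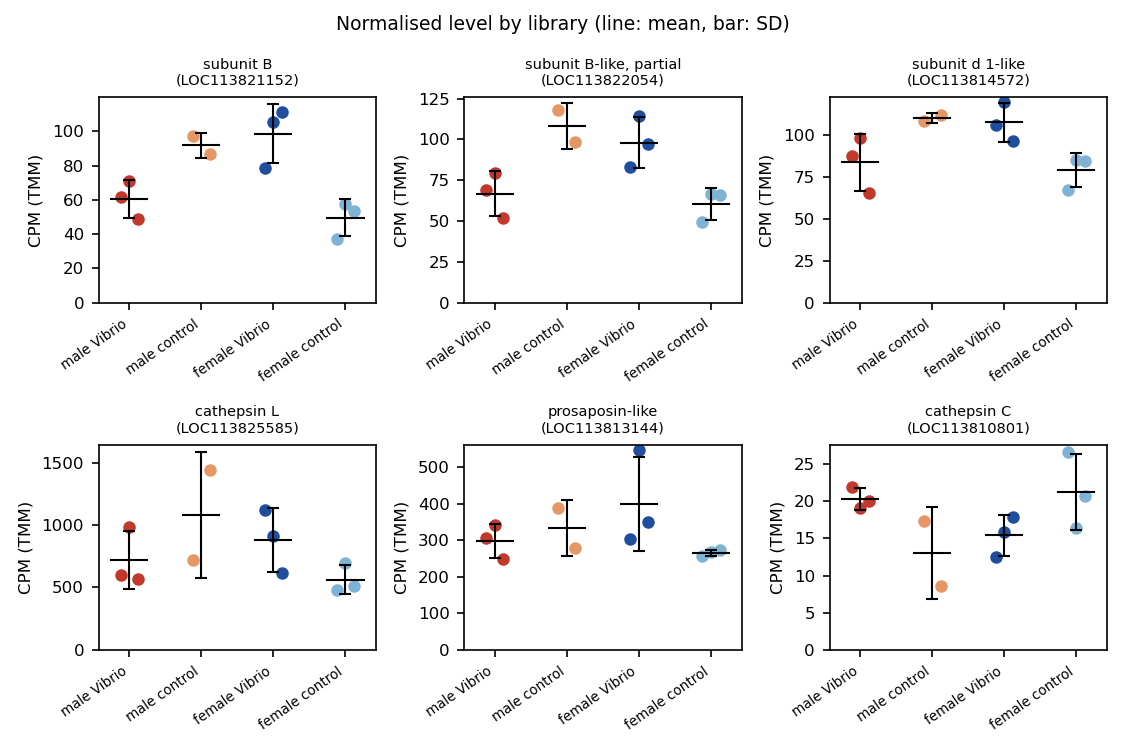
CPM by library (points), mean (line) and SD (bar) in male Vibrio, male control, female Vibrio and female control hemocytes for 3 V-type ATPase genes (top) and cathepsin L, prosaposin-like LOC113813144 and cathepsin C (bottom). The top row shows Vibrio males below control males and Vibrio females above control females without overlap, and cathepsin C lies the other way.

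Among the cathepsins and legumains, 8 of 12 genes were tested. With Vibrio, 5 of the 8 had a lower estimate in males and 7 of the 8 a higher one in females. Cathepsin L (LOC113825585) had 604, 986 and 571 CPM in Vibrio males, against 722 and 1439 CPM in control males. It had 1120, 909 and 615 CPM in Vibrio females, against 479, 696 and 512 CPM in control females. The groups overlap in both sexes, and the log2 fold changes were -0.59 (SE 0.37) and 0.65 (SE 0.34). Without control male 3, the library at 1439 CPM, the male value was -0.0017. In controls, males were above females without overlap (0.94, SE 0.37, edgeR adjusted p = 0.756), and without control male 3 that value was 0.38.

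Cathepsin B (LOC113808173) had 474, 560 and 355 CPM in Vibrio males, against 1199 and 460 CPM in control males, so the control males themselves differed by more than the groups. It had 531, 851 and 385 CPM in Vibrio females, against 359, 654 and 725 CPM in control females. Its log2 fold change was -0.84 (SE 0.46) in males, where it was 0.01 without control male 2, and 0.02 (SE 0.42) in females.

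Cathepsin C (LOC113810801), a dipeptidyl peptidase that activates granule proteases in mammalian leukocytes, was 1 of 5 genes of the 57 with a higher estimate with Vibrio in males and a lower one in females. It had 22.0, 19.1 and 20.04 CPM in Vibrio males, against 17.4 and 8.61 CPM in control males, higher without overlap (0.65, SE 0.32; 0.24 without control male 3). It had 12.5, 15.8 and 17.9 CPM in Vibrio females, against 26.6, 16.4 and 20.7 CPM in control females (-0.46, SE 0.28). Here the highest Vibrio female lay above the lowest control. The male minus the female effect of 1.11 (SE 0.43) had an unadjusted edgeR p of 0.0263 and an adjusted p of 0.74. Vibrio males were also above Vibrio females without overlap (0.40, SE 0.28). The other 4 genes were the subunit a-like gene LOC113810956, beta-hexosaminidase subunit alpha-like LOC113824355 (0.04 in males and -0.31 in females), testicular acid phosphatase homolog LOC113827042 (0.32 and -0.64) and lysosomal thioesterase PPT2-A-like LOC113807277 (0.43, without overlap, and -0.21). Cathepsin L-like (LOC113807041), at 30.1 ± 2.97 FPKM (SD, n = 11), varied least among the 8 tested genes, 1.45-fold between its highest and lowest library.

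Legumain is an asparaginyl endopeptidase that processes other lysosomal proteases, and 4 genes carried its name. These legumain genes were picked for mention after their values were seen. LOC113827868 had 48.7, 25.02 and 27.5 CPM in Vibrio females, against 15.9, 18.8 and 22.6 CPM in control females, higher without overlap (0.82, SE 0.53). In males it had 20.5, 60.1 and 11.6 CPM with Vibrio, against 15.6 and 25.5 CPM in controls. LOC113827866, 16672 bases away on the same scaffold, ran between 0.0904 and 61.8 FPKM over libraries, with high and low libraries in both female groups. The ratio of LOC113827868 to LOC113827866 was 0.419 in Vibrio female 1 and 139 in Vibrio female 2. The 2 other legumain-like genes stayed under 1 FPKM.

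The other proteases and thiol reductases leaned one way within each sex: of 8 tested, 8 had a lower estimate in Vibrio males and 8 a higher one in Vibrio females. The GILT-like gene LOC113803440, the most abundant of all 64, had 1083, 1064 and 915 CPM in Vibrio males, against 1372 and 1066 CPM in control males. It had 956, 1173 and 943 CPM in Vibrio females, against 802, 1162 and 1007 CPM in control females. Its groups overlap, with log2 fold changes of -0.26 (SE 0.22) and 0.05 (SE 0.20). The aspartic protease-like gene LOC113812323, of the cathepsin D kind of protease, had 631, 634 and 415 CPM in Vibrio males, against 966 and 552 CPM in control males. It had 551, 781 and 734 CPM in Vibrio females, against 371, 524 and 622 CPM in control females. The groups overlap in both sexes (-0.44, SE 0.32, and 0.45, SE 0.29), and the male value was 0.02 without control male 2.

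A scarce GILT-like gene, LOC113811873, was at 0 in all 3 Vibrio males, as was beta-hexosaminidase subunit alpha-like LOC113821171. The GILT-like gene had 0.347 and 1.11 CPM in control males, 3.19, 0 and 0.729 CPM in Vibrio females, and 0.143, 0.482 and 0.732 CPM in control females. Against a floor of 3 counts per library, the mean of the group gives a level at least 12.6-fold lower in Vibrio males than in control males and at least 22.6-fold lower than in Vibrio females, where 1 library was also at 0. Each limit rests on 1 library: without control male 3 it was 6.02-fold, and without Vibrio female 1 it was 6.32-fold. Each also takes every count as a separate fragment, which may not hold where most low counts are even. DESeq2 called the difference between Vibrio males and Vibrio females (adjusted p = 0.0172), and edgeR gave an adjusted p of 1. LOC113811873 and LOC113821171 average under 1 FPKM and were singled out after their values were seen. The level of LOC113811873 followed the share of hepatopancreas marker counts (Spearman rho 0.912 over 11 libraries). That share was 0.0417 to 0.0771% in Vibrio males, against 0.0870 to 0.299% in control males. The part of that share in the result was not tested.

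Of the 2 prosaposin genes, precursors of the proteins that present sphingolipids to lysosomal enzymes, LOC113813144 had 304, 546 and 350 CPM in Vibrio females, against 257, 267 and 272 CPM in control females, higher without overlap (0.59, SE 0.24, edgeR adjusted p = 0.986). The value was 0.30 without Vibrio female 2, the library at 546 CPM. In males it had 305, 341 and 248 CPM with Vibrio, against 388 and 279 CPM in controls (-0.16, SE 0.27). LOC113813445 had 851, 1071 and 947 CPM in Vibrio females, against 741, 684 and 906 CPM in control females (0.30, SE 0.18), with overlap.

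Glycosidases, which remove sugars from glycoproteins and glycolipids, showed no common direction with Vibrio: 5 of 8 had a higher estimate with Vibrio in males and 5 of 8 in females, and the male minus the female effect was below 0 for 4 of 8. Between the sexes, 7 of 8 were lower in males than in females with Vibrio (median log2 difference -0.20) and 7 of 8 in controls (-0.34), where 38 of the 57 lysosome genes were higher in males. The highest, beta-hexosaminidase subunit alpha-like (LOC113811731), had 19.8, 10.2 and 42.1 CPM in Vibrio males, against 27.5 and 31.2 CPM in control males. It had 25.2, 27.4 and 26.1 CPM in Vibrio females, against 19.2, 25.8 and 61.5 CPM in control females. Its spread within Vibrio males and within control females exceeded the differences between groups (-0.29, SE 0.57, and -0.44, SE 0.51).

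Acid phosphatase type 7-like (LOC113818646), the higher of 2 tested phosphatases, had 17.8, 15.99 and 9.88 CPM in Vibrio males, against 9.90 and 16.1 CPM in control males. It had 30.8, 13.8 and 29.4 CPM in Vibrio females, against 16.5, 9.07 and 23.8 CPM in control females. All groups overlap, with log2 fold changes of 0.16 (SE 0.47) in males and 0.59 (SE 0.42) in females.

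Among membrane proteins, lysosome-associated membrane glycoprotein 1-like (LOC113808348), a membrane protein used as a marker of the compartment itself, had small log2 fold changes. It had 345, 374 and 320 CPM in Vibrio males, against 333 and 307 CPM in control males. It had 326, 311 and 466 CPM in Vibrio females, against 309, 285 and 365 CPM in control females. The log2 fold changes were 0.11 (SE 0.22) and 0.20 (SE 0.19), and the male minus the female effect was -0.09 (SE 0.29), against a median of -0.79 for the V-type ATPase genes. Over the alternative settings the female value ran between -0.015 and 0.31. Lysosome membrane protein 2-like (LOC113826216) had 16.2, 2.06 and 3.01 CPM in Vibrio females, against 0.839, 1.63 and 2.17 CPM in control females, where 1 Vibrio library held most of the level (2.19, SE 0.89). The lowest value over the fits that left out 1 library was 0.71. This gene was also chosen after its values were seen.

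BLOC-1 and trafficking genes had 6 of 7 estimates lower with Vibrio in males and 6 of 7 higher in females. BLOC-1 subunit 1-like (LOC113821634) had 18.9, 22.6 and 20.04 CPM in Vibrio males, against 35.9 and 24.7 CPM in control males, lower without overlap (-0.56, SE 0.34). It had 24.2, 34.4 and 13.1 CPM in Vibrio females, against 17.2, 19.1 and 20.8 CPM in control females. Vibrio female 3 lay below all controls there, and the log2 fold change was 0.33 (SE 0.31). Without Vibrio female 2 it was -0.03.

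Other genes of lysosomal function that the name rule does not take, such as further hydrolases, sulfatases, transporters and sorting receptors, were counted for comparison. Of 109 such genes 94 were tested. With Vibrio, 48 of the 94 were lower in males (median log2 fold change -0.03), against 52.1% of all genes tested. In females 61 of the 94 were higher (0.17), against 55.0%. The male minus the female effect was below 0 for 57 of the 94 (-0.22), against 54.1%. An unadjusted edgeR p under 0.05 was reached by 1 of the 94 in males, 3 in females and 6 for the difference. Of all genes tested 2.41, 4.05 and 5.6% reached it. Taken instead by the KEGG pathway Lysosome, 110 genes outside the 64 were tested. In males 64 of the 110 were lower with Vibrio (median -0.12), and in females 77 were higher (0.17). For 75 of the 110 the male minus the female effect was below 0 (-0.32). The shares of all genes to set beside these are the same 52.1, 55.0 and 54.1%. As a share of counts these 109 genes took 0.312 to 0.389% in Vibrio males, against 0.339 to 0.367% in control males, and 0.336 to 0.357% in Vibrio females, against 0.331 to 0.352% in control females.

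Several genes of the set, most of them scarce, moved with the digestive gland markers. The 116 hepatopancreas marker genes took 0.0417, 0.0771 and 0.0662% of the counts in Vibrio males, against 0.0870 and 0.299% in control males. They took 0.247, 0.0509 and 0.214% in Vibrio females, against 0.0528, 0.1998 and 0.1208% in control females. Over the 11 libraries, 5 of the 57 tested genes had a Spearman rho of at least 0.8 with that share, or 8.77%, against 5.2% of all genes tested. These were legumain-like LOC113827866, cathepsin l, partial (LOC113808808), 2 GILT-like genes (LOC113823719 and LOC113811873) and aspartic protease-like LOC113827169. For LOC113827866, Pearson's r on log2 values was 0.88 (permutation p = 0.00085, adjusted over the 57 genes 0.0121) and rho 0.891 (permutation p = 0.00059, adjusted 0.00741). Without the 2 libraries farthest from the median share r was 0.86, and within groups 0.93. For the other 4 genes r ran between 0.88 and 0.93 and rho between 0.888 and 0.925.

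For the abundant genes the relation was weaker and did not pass the test. Cathepsin L (LOC113825585) had an r of 0.52 (permutation p = 0.1, adjusted 0.438) and rho 0.455 (permutation p = 0.162, adjusted 0.61), with r -0.002 without the 2 farthest libraries. For subunit B (LOC113821152) r was 0.40 (permutation p = 0.223, adjusted 0.707) and rho 0.327 (permutation p = 0.325, adjusted 0.881). The largest r of the V-type ATPase genes was 0.61, for LOC113821104 (permutation p = 0.0464, adjusted 0.331), and 0.28 without the 2 farthest libraries. The less abundant cathepsin C (LOC113810801) ran the other way, with r -0.67 (permutation p = 0.0194, adjusted 0.158), and -0.32 without those libraries. With the share as a covariate in edgeR, 17 of the 18 V-type ATPase genes had a male minus female effect below 0, with a median of -0.86, and over all 57 genes 36 did, against 47 without the covariate. Lower with Vibrio in males were 14 of the 18, against 17, and 32 of the 57, against 42. Higher with Vibrio in females were 41 of the 57, against 49. The 3 libraries with the highest share were control male 3 and Vibrio females 1 and 3. Without them, control male 2 and Vibrio female 2 were the only libraries of their groups. That fit gave 17 of 18 (median -1.02) and 36 of 57 below 0 for the difference. In males 14 of 18 and 33 of 57 were lower, and in females 38 of 57 were higher. The kept control male was the highest library for 7 of the 18 genes, and the kept Vibrio female for 6. For those groups, that fit cannot tell the group from its library.

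**Figure D5:**
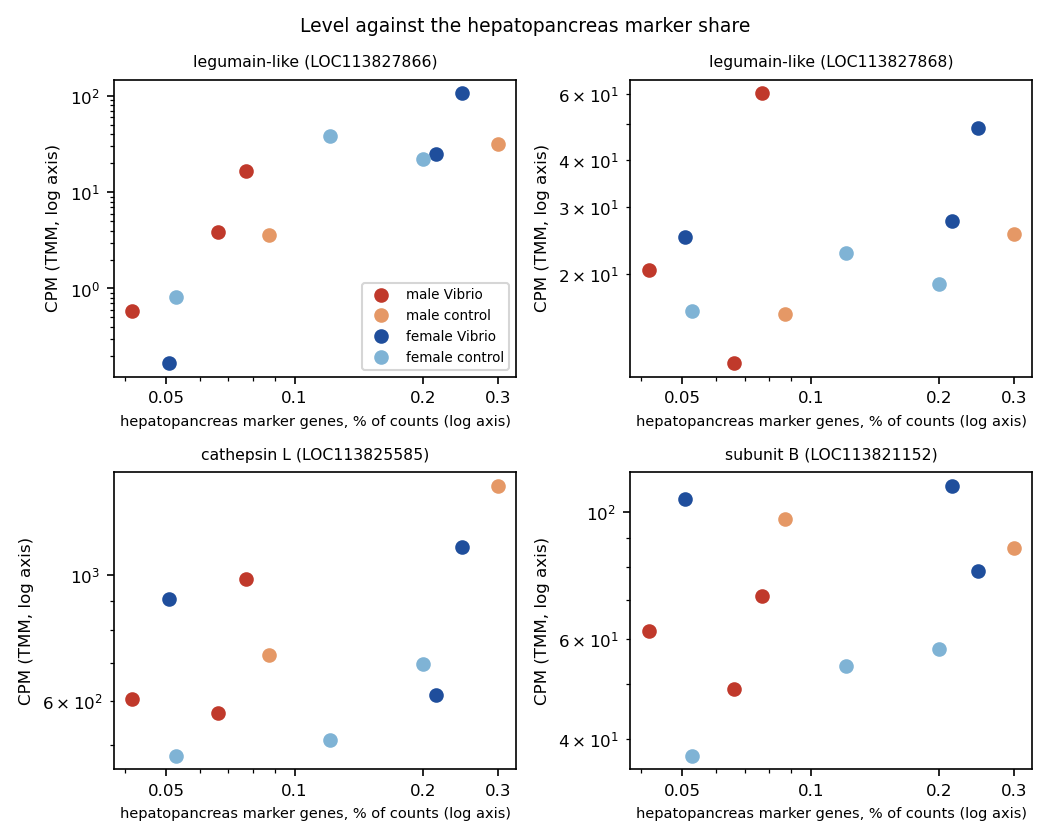
CPM (log axis) against the percentage of counts in hepatopancreas marker genes (log axis) in 11 libraries, coloured by group, for 2 legumain-like genes, cathepsin L and V-type ATPase subunit B. Legumain-like LOC113827866 is lowest in the library with the lowest share of each group, while the subunit B points follow the share less closely. The r values, 0.88 against 0.40, were computed from FPKM and not from the CPM drawn.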

How the data were processed

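Per the labels, hemocyte RNA of each library was sequenced; per the submitters' processing notes reads were trimmed with cutadapt 1.9 and inspected with FastQC. For the aligner, the counter, the build and strandedness, nothing is stated in the sources used here. The authors deposited a table with a read count and an FPKM per gene and library, and neither was altered before use. Groups follow the labels. Counts were tested with edgeR 4.0.16 (R 4.3.3, TMM scaling, filterByExpr, robust quasi-likelihood fit of 4 group means over 11 libraries), two-sided, with Benjamini-Hochberg adjustment over all 14295 genes tested. SEs are the fold change divided by the root of F. FPKM values were used for levels and their ranges over libraries, for ratios between genes, and for the correlations with the hepatopancreas marker share. Tests and group comparisons used counts and CPM. Depth was 39733829 to 53837438 counts, and 3 counts, used as the floor, equal 0.0557 to 0.0755 CPM and cover counting error only.

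DESeq2 1.42.0 and other settings served as alternatives. Correlations used log2 values and permutation tests with 100000 resamples. Scripts were tested on simulated data. The genes named with values were those with a mean of at least 1 FPKM that were among the 10 highest, had one of the 3 smallest p in a comparison, were called by a tool, led a family by level, or coded for a V-type ATPase subunit. Others are marked in the text or complete a count given there, except cathepsin L-like LOC113807041, which was named for its small spread. The gene set, marker lists and tests were chosen with earlier results of these data known. Besides the lists in the text, muscle markers took 0.202 to 0.394% of counts, cuticle markers up to 0.0228% and gonad markers 0.0158 to 0.0198%. Sequences were not used here, and the coordinates of the deposited table served only for the distances between genes given above.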

Additional observations from a re-analysis of the deposited data

Results flagged for a closer look

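For 3 V-type ATPase genes every Vibrio male lay below both control males, while every Vibrio female lay above all control females. The male minus the female effect was -1.59 on the log2 scale for subunit B (LOC113821152), -1.39 for subunit B-like (LOC113822054) and -0.84 for subunit d 1-like (LOC113814572). The edgeR test of that difference gave an adjusted p of 0.74 for each, so none passed, whereas DESeq2 gave adjusted p of 0.00912, 0.0299 and 0.539. The same pattern was shown by 0.35% of all genes tested.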

How the results depend on the processing

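Under edgeR 0 genes of the set were called in any comparison, in every setting with at least 2 libraries per group. Up to 57 of the genes were tested there, or 61 with no filter on low counts. DESeq2 called 1 in Vibrio against control females, 2 for the male minus the female effect and 1 in Vibrio males against Vibrio females. DESeq2 size factors, no filter on low counts and fits of single comparisons kept the direction of every median. With single libraries left out, the median log2 fold change of the genes ran between -0.38 and -0.19 in males, 0.19 and 0.52 in females, -0.84 and -0.50 for the difference, 0.08 and 0.44 for males against females in controls, and -0.45 and -0.16 with Vibrio. With hepatopancreas share as a covariate the difference was -0.43, and without the 3 libraries highest in it, a setting chosen after seeing the data, -0.44. That last fit kept only control male 2 and Vibrio female 2 in their groups. Single genes were less stable: of 145 pairs of named gene and comparison, 37 had the opposite sign in at least 1 alternative.

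With the replicate number as a replicate block, 0 genes were called and the medians were -0.32 in males, 0.26 in females and -0.62 for the difference. The numbers are not shown to pair the samples: 5 of 15 pairs of same-numbered libraries correlated above 0.1, between -0.574 and 0.498, and 6 of 11 libraries correlated best with their own number.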
